A study of Mus musculus with 6 samples.

Results

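The genes described here encode the 5 subunits of the NF-kappaB transcription factors (Nfkb1, Nfkb2, Rel, Rela and Relb) and 5 proteins that regulate them. Nfkbia, Nfkbie and Tnfaip3 encode inhibitors, while Nfkbiz and Nfkbid encode nuclear proteins that can raise or lower transcription of NF-kappaB targets. The 10 genes were taken by gene symbol from 53379 gene identifiers. All 10 were among the 20475 genes that passed the filter on low counts and were tested. RNA was sequenced from 6 libraries of flow-sorted regulatory T cells (Tregs, FOXP3-expressing CD4 T cells that hold back other immune cells), taken from 3-month-old C57BL/6 mice. Both groups carried the Foxp3YFP-Cre allele, in which Cre recombinase is made where Foxp3 is expressed. In the 3 WT libraries it was combined with Junb+/+, and in the 3 libraries labelled bKO with JunbFlox/Flox, so that floxed Junb can be removed in Tregs. JunB, the Junb protein, forms AP-1 dimers with other factors, and the comparison addressed which genes differ when it is deleted in Tregs. Whether each library is from a different mouse is not stated in the labels. P-values therefore reflect only the variation among these 6 libraries, and that variation may be technical.

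NF-kappaB factors are dimers of subunits that share a DNA-binding Rel homology region. In resting cells IkappaB proteins such as those of Nfkbia and Nfkbie keep most dimers in the cytoplasm, and signals from the T cell receptor, CD28 or TNF receptors lead to phosphorylation and loss of these inhibitors. Rela, Rel and Relb proteins carry a transactivation domain, while Nfkb1 and Nfkb2 are made as precursors that are processed to p50 and p52. Nfkbia, Nfkbie, Nfkbiz, Nfkbid and Tnfaip3 are themselves known NF-kappaB targets and thus form feedback loops. In Tregs, c-Rel (Rel) is known for its part in Foxp3 induction in the thymus, and p65 (Rela) and c-Rel for keeping mature Tregs functional.

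In bKO, 9 of the 10 genes had a lower mean than in WT, and Rela was the 1 with a higher mean. The lowest relative level was that of Tnfaip3, at 61.8% of the WT mean, followed by Nfkbiz at 72.8%. For Nfkb1, Nfkbia, Nfkbiz and Tnfaip3 every bKO library lay below every WT library. None of the 10 passed the test across all genes (edgeR quasi-likelihood test, Benjamini-Hochberg adjusted p = 0.9999 for each), so these are measured levels and not established changes. Over all tested genes 49.1% had a lower mean in bKO, and the genotypes did not overlap in 7.76% of genes (bKO lower in 4.07%, bKO higher in 3.68%). The median log2 difference (bKO minus WT) of the 10 genes was -0.27, against 0.005 for all tested genes.

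The sequence next to RefSeq starts of these genes is shown first. It was searched for the motif of NF-kappaB itself and for that of AP-1, the factor that Junb belongs to. Windows from 250 bases before to 50 after each RefSeq start on GRCm38.p6 were found for 7 of the 10 genes (12 windows, since Nfkb2, Nfkbid and Tnfaip3 have several starts); Nfkb1, Relb and Nfkbiz were not in that table. The kappaB motif was GGGRNNYYCC (R is A or G, Y is C or T, N is any base), searched on both strands. It was in a window of 6 of these 7 genes (all but Rela) and in 8 of the 12 windows. Every Nfkb2 window held a match. The Nfkb2 windows chr19:46305445-46305744 and chr19:46305680-46305979 overlap, and the same match is counted in both. Of all 32851 windows of the table, 8.46% held it. The AP-1 motif TGACTCA, on either strand, was in a window of Tnfaip3 and of Nfkbie, and in 5.2% of all windows. The related cyclic AMP response motif TGACGTCA was found in 1 window of Nfkbid and in 1.79% of all windows. No AP-1 match overlapped a kappaB match.

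The stretches below run 5′ to 3′ along the gene's own strand, with the kappaB and AP-1 matches in capitals. In Tnfaip3 (chr10:19015411-19015547, minus strand, up to the base before the RefSeq start) the AP-1 match comes first, at -136 to -130, followed by kappaB matches at -125 to -116 and at -12 to -3. In Nfkbia (chr12:55492648-55492807, minus strand) the capitals mark a kappaB match at -29 to -20, and in Rel (chr11:23770971-23771129, minus strand) 1 at -92 to -82. In Nfkbie (chr17:45555540-45555699, plus strand) an AP-1 match stands at -156 to -150 and a kappaB match at -106 to -97. Of Nfkb2 (chr19:46304692-46304721, plus strand) 30 bases around the kappaB match at -39 to -29 are shown. The RefSeq starts used for Tnfaip3 and Nfkb2 lie inside the genes as GENCODE places them (chr10:19000910-19015657 and chr19:46304320-46312385). Their printed stretches therefore lie within these genes, downstream of the GENCODE starts. A match describes letters in a window and does not show that a factor binds there.
Tnfaip3: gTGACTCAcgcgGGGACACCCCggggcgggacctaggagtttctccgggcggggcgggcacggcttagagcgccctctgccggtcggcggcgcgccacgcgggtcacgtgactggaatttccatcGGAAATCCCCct
Nfkbia: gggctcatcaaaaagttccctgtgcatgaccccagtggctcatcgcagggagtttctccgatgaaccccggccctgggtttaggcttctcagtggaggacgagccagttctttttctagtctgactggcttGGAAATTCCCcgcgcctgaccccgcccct
Rel: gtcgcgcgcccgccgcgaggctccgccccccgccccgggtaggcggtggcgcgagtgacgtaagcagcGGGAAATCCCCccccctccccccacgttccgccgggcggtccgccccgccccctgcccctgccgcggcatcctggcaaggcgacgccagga
Nfkbie: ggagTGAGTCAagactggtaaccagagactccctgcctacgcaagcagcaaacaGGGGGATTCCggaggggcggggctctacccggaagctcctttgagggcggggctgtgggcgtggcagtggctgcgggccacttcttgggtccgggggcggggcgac
Nfkb2: cgtcacGGGAATTCCCCccctcggggggcc

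Library totals lay between 33784183 and 41231173 counts, and levels are given as counts scaled to a common library total (CPM) with TMM factors, which correct for differences in RNA make-up. The targeted gene Junb (ENSMUSG00000052837.6) read 87.1, 77.5 and 89.5 CPM in the WT libraries (always listed by replicate, 1 to 3) and 57.1, 57.3 and 49.6 CPM in the bKO libraries. All bKO libraries thus lay below WT, at 64.5% of the WT mean. The counts do not show which part of the gene those reads came from, and 173 bases of its exons are shared with Prdx2. Treg markers (8 genes, among them Foxp3, Il2ra and Ctla4) were present in every library, with a sum of 1883 to 2232 CPM in WT and of 896 (bKO replicate 1), 1530 and 2005 CPM in bKO, and bKO replicate 1 was the lowest. That library also held the highest sum of erythroid and platelet markers (6 tested genes), 5970 CPM against 61.9 to 2173 CPM in the other 5. The labels give no sorting gate, and B cell markers (10 genes) summed to 136 to 1198 CPM in WT and 571 to 743 CPM in bKO. The names of the count tables carry a number that splits the libraries into a set with WT replicates 1 and 2 and bKO replicate 2 (set A) and a set with WT replicate 3 and bKO replicates 1 and 3 (set B). What that number marks is not stated.

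**Figure D1:**
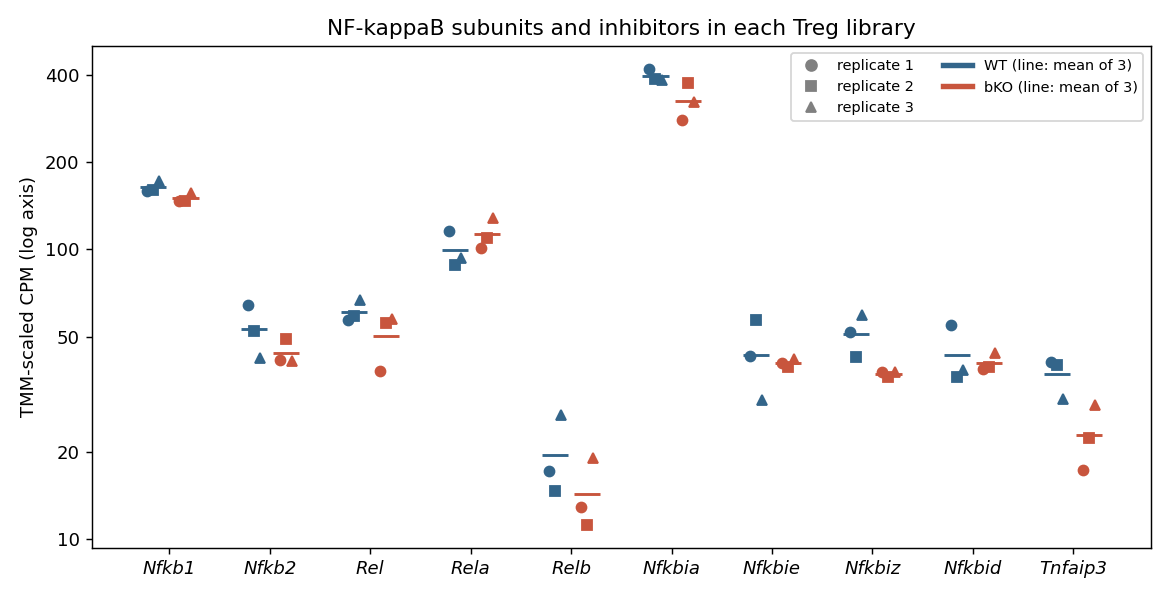
TMM-scaled CPM (log axis) of the 10 genes in each of the 3 WT (blue) and 3 bKO (red) libraries, with symbols for the replicate number and lines at the genotype means. Nfkbia lies between 279 and 419 CPM, and the genotypes do not overlap for Nfkb1, Nfkbia, Nfkbiz and Tnfaip3.

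Of the subunits, Nfkb1 (p105 and p50; ENSMUSG00000028163.17, chr3:135584655-135691547, minus strand) varied least. It stood at 159, 160.5 and 172 CPM in WT and at 147, 146 and 156 CPM in bKO. The genotypes did not overlap, but the gap was narrow: the highest bKO library was 156 CPM and the lowest WT library 159 CPM. The means were 163.9 ± 7.03 and 150.0 ± 5.45 CPM (SD, n = 3, as for all means given here). The log2 difference was -0.13 (SE 0.10, 95% interval -0.37 to 0.11), with an exact permutation p of 0.1, the smallest that 3 against 3 libraries can give. It was -0.12 within set A and -0.18 within set B.

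Rela (p65; ENSMUSG00000024927.7, chr19:5637483-5648130, plus strand) was the only one of the 10 genes with a higher mean in bKO. Its level was 115, 88.5 and 93.6 CPM in WT and 100.7, 109.7 and 128 CPM in bKO, so WT replicate 1 lay among the bKO libraries. The log2 difference was 0.19 (SE 0.15, 95% interval -0.18 to 0.55; exact permutation p = 0.3). It had the same sign in both sets, 0.12 in set A and 0.28 in set B. Its size rested on single libraries, at 0.08 without bKO replicate 3, 0.11 without WT replicate 2 and 0.31 without WT replicate 1.

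Rel (c-Rel; ENSMUSG00000020275.9, chr11:23736847-23770970, minus strand) stood at 57.0, 59.0 and 66.6 CPM in WT and at 37.9, 55.5 and 57.6 CPM in bKO. The groups overlapped, and bKO replicate 1 was well below the other 5 libraries. The log2 difference of -0.27 (SE 0.19; exact permutation p = 0.2) became -0.11 without bKO replicate 1, the library with the lowest Treg marker sum. Whether the lower share of Treg transcripts in that library has a part in its Rel level was not tested, and in bulk RNA fewer cells of a type and less RNA per cell cannot be told apart.

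Nfkb2 and Relb are the subunits best known from the non-canonical pathway. Nfkb2 (p100 and p52; ENSMUSG00000025225.14, chr19:46304320-46312385, plus strand) stood at 64.4, 52.1 and 42.4 CPM in WT and at 41.5, 49.2 and 41.1 CPM in bKO. Only WT replicates 1 and 2 lay above all bKO libraries. Its log2 difference was -0.27 (SE 0.19; exact permutation p = 0.2), and it was -0.10 without WT replicate 1. Exons of Nfkb2 share 299 bases with Psd and 531 bases with the antisense transcript AC114539.1, and since strand use in counting is not stated, its counts are uncertain to that extent. Relb (ENSMUSG00000002983.17, chr7:19606217-19629438, minus strand) stood at 17.3, 14.7 and 26.8 CPM in WT and 12.9, 11.2 and 19.0 CPM in bKO. Its groups overlapped, with a coefficient of variation of 32.7% in WT and 28.6% in bKO, and the log2 difference was -0.45 (SE 0.32; exact permutation p = 0.3). Without WT replicate 3, which held the highest value, it was -0.16, and without bKO replicate 3 it was -0.70.

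Among the inhibitors, Nfkbia (IkappaB-alpha; ENSMUSG00000021025.8, chr12:55489410-55492647, minus strand) had the highest level of the 10, also per length. It stood at 419, 387 and 382 CPM in WT and at 279, 374 and 322 CPM in bKO. No bKO library reached the WT range, though bKO replicate 2 came close to it, and on total counts without TMM factors the groups overlapped. The means were 396 ± 19.98 and 325 ± 47.6 CPM. The log2 difference was -0.28 (SE 0.13, 95% interval -0.60 to 0.03; edgeR p = 0.0696 before adjustment, exact permutation p = 0.1). Without bKO replicate 1 it was -0.19, and it was -0.11 within set A and -0.35 within set B.

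Nfkbie (IkappaB-epsilon; ENSMUSG00000023947.7, chr17:45555703-45563169, plus strand), the other cytoplasmic inhibitor among the 10, had no stable direction. It stood at 42.9, 57.0 and 30.2 CPM in WT and at 40.5, 39.2 and 41.9 CPM in bKO. All bKO values fell inside the WT range, and the log2 difference was -0.10 (SE 0.23, 95% interval -0.65 to 0.45; exact permutation p = 0.7). The sign turned without WT replicate 2 (0.15) and between the sets (-0.33 in set A, 0.43 in set B). WT replicate 2, with the highest Nfkbie level, was also the library with the highest B cell marker sum (1198 CPM), and WT replicate 3, with the lowest, had the lowest (136 CPM). The other libraries did not follow that order. WT replicate 1 had a sum of 204 CPM with Nfkbie at 42.9 CPM. The bKO libraries had higher sums (743, 646 and 571 CPM) with Nfkbie slightly lower, at 40.5, 39.2 and 41.9 CPM. The part of B cells in these values was not tested.

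The nuclear IkappaB proteins bind NF-kappaB dimers on DNA and can raise or lower transcription of chosen targets. Nfkbiz (IkappaB-zeta; ENSMUSG00000035356.16, chr16:55811375-55838899, minus strand) stood at 51.7, 42.5 and 59.1 CPM in WT and at 37.7, 36.2 and 37.7 CPM in bKO. The groups did not overlap, and the bKO libraries were nearly equal. The means were 51.1 ± 8.33 and 37.2 ± 0.869 CPM, with a log2 difference of -0.46 (SE 0.16, 95% interval -0.84 to -0.08; edgeR p = 0.0236 before and 0.9999 after adjustment, exact permutation p = 0.1). The difference was as large without bKO replicate 1 (-0.47) and kept its sign in set A (-0.36) and set B (-0.64). Nfkbid (IkappaBNS, known for its part in Foxp3 induction; ENSMUSG00000036931.15, chr7:30421732-30428746, plus strand) stood at 55.0, 36.2 and 38.4 CPM in WT and at 38.6, 39.3 and 43.9 CPM in bKO. WT replicate 1 was above and the other WT libraries were below every bKO library. Its log2 difference was -0.09 (SE 0.19, 95% interval -0.55 to 0.37), and 0.12 without WT replicate 1.

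Tnfaip3 encodes A20, a ubiquitin-editing enzyme that ends signalling from TNF and antigen receptors to the IkappaB kinase (ENSMUSG00000019850.11, chr10:19000910-19015657, minus strand). It stood at 40.7, 40.0 and 30.6 CPM in WT and at 17.3, 22.4 and 29.1 CPM in bKO. Every bKO library lay below WT, but the highest bKO library (29.1 CPM) nearly reached the lowest WT library (30.6 CPM). The means were 37.1 ± 5.66 and 22.9 ± 5.89 CPM. The log2 difference was -0.69 (SE 0.24, 95% interval -1.25 to -0.13; edgeR p = 0.0223 before and 0.9999 after adjustment, exact permutation p = 0.1). It was -0.53 without bKO replicate 1, -0.82 within set A and -0.43 within set B. Tnfaip3 and Nfkbie are the genes with an AP-1 match in the windows above, and the genotypes did not overlap for Tnfaip3 but did for Nfkbie. Of the other genes without overlap, Nfkbia had no AP-1 match in its window, and Nfkb1 and Nfkbiz had no window to search. A link between the matches and the levels was not tested.

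**Figure D2:**
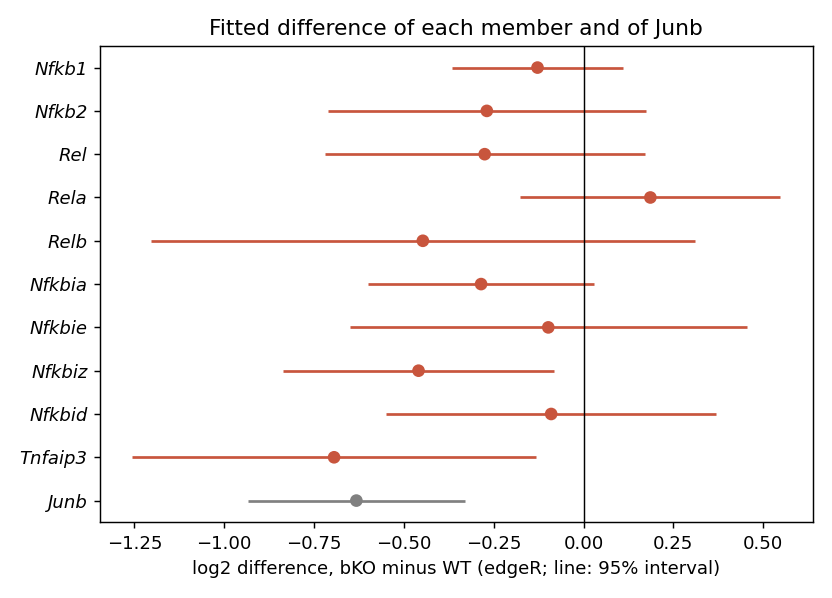
Log2 difference (bKO minus WT) fitted by edgeR for the 10 genes (red) and for Junb (grey), with 95% intervals from the fit. The intervals of Nfkbiz (-0.84 to -0.08) and Tnfaip3 (-1.25 to -0.13) lie below 0, those of the other 8 genes cross 0, and none of the 10 genes passed after adjustment over all tested genes.

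Of the 10 genes, 2 (Nfkbiz and Tnfaip3) had an edgeR p under 0.05 before adjustment, where 2.88% of all tested genes did. Both were lower in bKO, as were 1.48% of all tested genes at that p. Which of the 10 genes fell under 0.05 changed with the setting. With a term for set A or B, the unadjusted edgeR p was 0.0564 for Tnfaip3, 0.01332 for Nfkbiz and 0.04175 for Relb. Leaving out 1 library at a time, it ran from 0.009137 to 0.07114 for Tnfaip3 and from 0.008857 to 0.0683 for Nfkbiz. For Nfkbia it was 0.02306 without bKO replicate 2. After adjustment edgeR called 0 genes of 20475, of which 590 had an unadjusted p under 0.05, limma-voom called 0 (750 unadjusted, 3.66%), and DESeq2 called 63 of 23198 genes (0.272%), with none of the 10 among them (smallest adjusted p = 0.493, DESeq2). Without bKO replicate 1, 9 of the 10 still had a lower mean in bKO, and the median log2 difference was -0.15. In that comparison the same 4 genes did not overlap, where 8.54% of all tested genes did so with bKO lower.

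To compare levels between genes, CPM was divided by gene length in kilobases (all annotated exons merged). On this scale the order in WT was led by Nfkbia at 246 ± 12.4 CPM per kilobase, followed by Rela at 32.3 ± 4.63. Then came Nfkbid (18.4 ± 4.37), Nfkbie (14.2 ± 4.39), Nfkb1 (13.6 ± 0.583), Nfkb2 (11.6 ± 2.41), Nfkbiz (10.2 ± 1.66) and Rel (8.16 ± 0.676), and from Nfkbid down to Rel the library ranges of neighbours in this order overlapped. Rel lay above the next gene without overlap. Tnfaip3 (5.13 ± 0.783) and Relb (5.04 ± 1.65) were lowest and overlapped each other. In bKO the order of the first 8 was the same, with Nfkbia at 202 ± 29.5 and Rela at 36.7 ± 4.51 CPM per kilobase, and Tnfaip3 (3.17 ± 0.815) came below Relb (3.70 ± 1.06) with overlapping ranges. The place of Nfkb1 rests on the length used. With the transcript of the longest coding sequence (4117 bases in place of 12061), it stood at 39.8 ± 1.71 CPM per kilobase in WT, beside Rela at 36.5 ± 5.23. Rel was then the lowest in WT, at 8.16 CPM per kilobase.

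Rela transcripts made up a larger part of the subunit transcripts in each bKO library than in any WT library. Of the summed CPM per kilobase of the 5 subunits, Rela held 48.8%, 44.2% and 43.7% in WT and 52.5%, 51.8% and 54.7% in bKO. With the coding transcript lengths the shares were 36.3%, 31.7% and 31.1% in WT and 38.2%, 38.8% and 41.1% in bKO, and the genotypes again did not overlap. The shares of Nfkb1 (17.2% to 20.4% in WT, 17.01% to 19.6% in bKO), Nfkb2, Rel and Relb overlapped between genotypes. The summed level of the subunits also overlapped, at 65.2 to 76.9 CPM per kilobase in WT and 62.4 to 76.2 in bKO. The level of Nfkbia relative to that sum was 3.39, 3.69 and 3.40 in WT and 2.78, 3.37 and 2.63 in bKO, with bKO replicate 2 just under the WT libraries. With the coding transcript lengths the genotypes overlapped (2.268, 2.388 and 2.187 in WT, 1.825, 2.276 and 1.785 in bKO). These are ratios within a library and show unequal levels, not which gene differs.

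**Figure D3:**
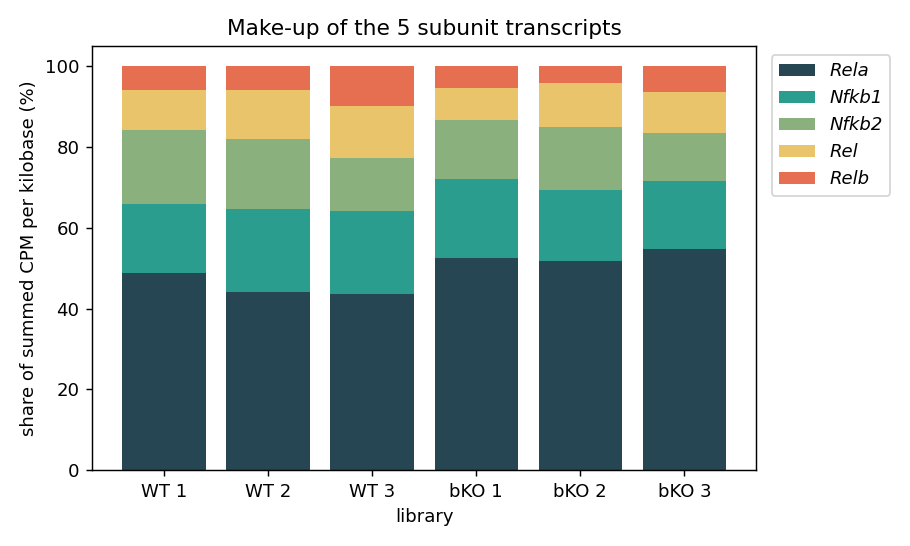
Share (%) of each subunit in the summed CPM per kilobase of Rela, Nfkb1, Nfkb2, Rel and Relb, 1 stacked bar per library. The share of Rela is 43.7% to 48.8% in the WT libraries and 51.8% to 54.7% in the bKO libraries.

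The level of the 10 genes also differed between libraries of 1 genotype. In bKO replicate 1 all 10 genes were below their own mean over the 6 libraries. In that library 3 of them had their lowest value, as did 3 in bKO replicate 2. In WT replicate 1 all 10 were above their mean, and in the other 4 libraries between 4 and 6 genes were below it. Genes that respond to cell handling and stimulation (9 tested, with Fos, Jun and Egr1 among them) summed to 289, 262 and 266 CPM in WT and to 222, 196 and 173 CPM in bKO, without overlap, and all 9 had a lower mean in bKO. Markers of conventional CD4 T cells (9 genes) summed to 1865, 1697 and 1418 CPM in WT and to 2391, 2054 and 1544 CPM in bKO, with 8 of 9 higher in bKO by their means. Myeloid markers (10 genes) summed to 389, 1233 and 234 CPM in WT and to 1017, 1339 and 561 CPM in bKO. The 8 Treg markers all had lower means in bKO, with a median log2 difference of -0.47. Without bKO replicate 1 all 8 were still lower, with a median of -0.21. For the 9 handling genes the median was -0.56, and -0.54 without bKO replicate 1. General T cell markers (8 genes) had lower means in bKO for 7 of 8, with a median log2 difference of -0.20, and for 8 of 8 without bKO replicate 1, with a median of -0.14 close to that of the 10 genes (-0.15). Their sums overlapped, at 3508 to 4650 CPM in WT and 3103 to 3709 CPM in bKO. B cell, myeloid, and CD8 T and NK cell lists each had overlapping sums, and of the genes in the Treg, conventional CD4, B cell, myeloid, and CD8 T and NK cell lists only Cd14 (myeloid) was at 0 in a library, WT replicate 3. The part of these cells, and of handling, in the levels of the NF-kappaB genes was not tested.

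**Figure D4:**
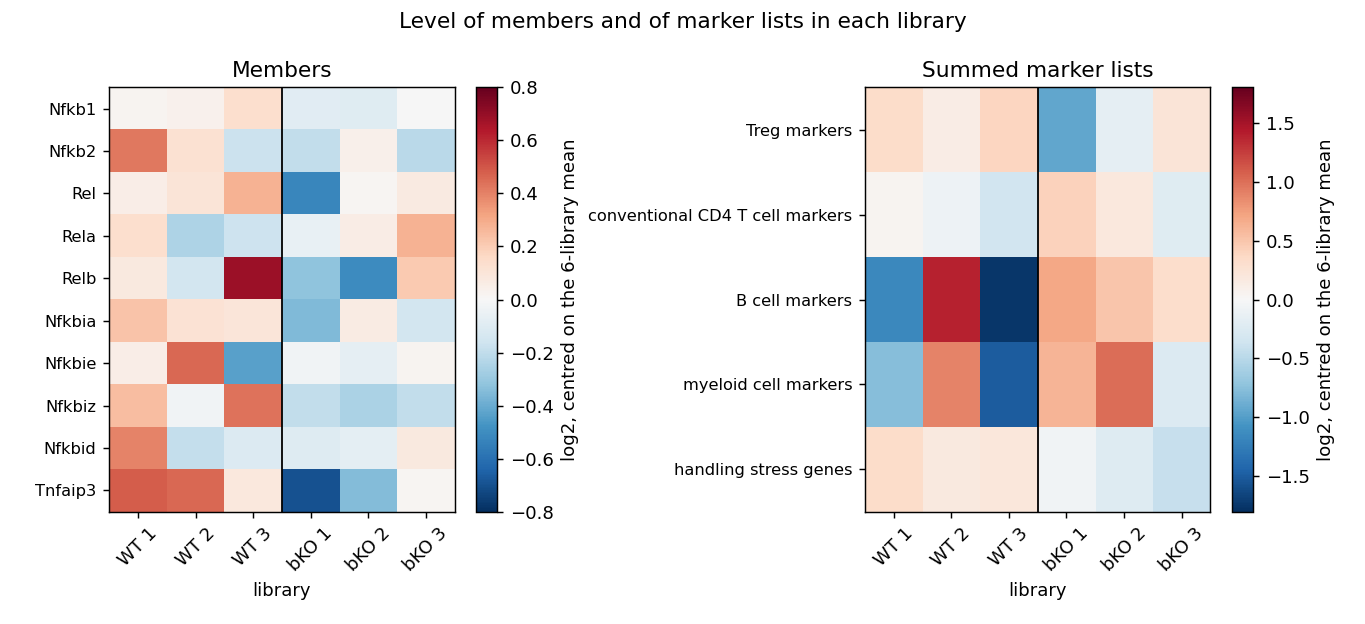
Left, log2(CPM + 1) of the 10 genes in each library, centred on the gene's mean over the 6 libraries; right, log2 of the summed CPM of 5 marker lists, centred likewise on a wider colour scale. All 10 genes are below their mean in bKO replicate 1, where the Treg marker sum is lowest (896 CPM).

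Genes with the most similar course over the 6 libraries were ranked by the root mean square difference of centred log2(CPM + 1), among 10181 tested genes with a mean of at least 10 CPM. For Tnfaip3 these were Saal1 (0.099), Pear1 (0.114) and Cd83 (0.114), an activation marker that stood at 171, 167 and 142 CPM in WT and at 84.7, 119 and 127 CPM in bKO. For Nfkbia they were Gm7669 (0.044), Tufm (0.048) and Slc25a45 (0.051), for Rel Dctn2 (0.053), Eif2d (0.054) and Vav3 (0.059), and for Nfkb1 Gm5915 (0.024), Psmb6 (0.024) and Gm11836 (0.027). Gm7669, Gm5915 and Gm11836 are processed pseudogenes, whose counts may be shared with other copies. Among the 10 genes themselves the closest to Tnfaip3, Nfkb1 and Rel was Nfkbia, at 0.290, 0.167 and 0.152. These values are the smallest of 9 and those above the smallest of 10181, so the 2 kinds are not to be set against each other.

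Around the 10 genes, 5 further lists of the pathway were compared, and edgeR called 0 of their tested genes. Of the 3 other IkappaB family genes all had a lower mean in bKO (median log2 difference -0.14, and 0.03 without bKO replicate 1). Nfkbib (IkappaB-beta) stood at 46.1 ± 5.40 and 41.9 ± 7.17 CPM in WT and bKO, Bcl3 at 14.1 ± 0.749 and 13.9 ± 1.68 CPM, and Nfkbil1 at 2.46 ± 0.757 and 2.24 ± 0.586 CPM, all overlapping. Of 26 upstream kinases and adaptors 14 had lower and 12 higher means, with a median of -0.04 that lay near that of all genes. The kinases Ikbkb (116.8 ± 31.0 and 129.7 ± 19.9 CPM) and Ikbke (146.8 ± 26.8 and 131.8 ± 18.3 CPM) and Btrc (132 ± 7.26 and 124 ± 1.99 CPM), whose protein marks phosphorylated IkappaB for destruction, had the highest CPM of the list, a value that also grows with gene length, and all 3 overlapped. Rbck1, the HOIL-1 subunit of the linear ubiquitin ligase, had values of 109.7, 94.6 and 104 CPM in WT and 84.7, 91.8 and 72.8 CPM in bKO without overlap (log2 difference -0.31, SE 0.13). Chuk, named after its values were seen, was the other upstream gene without overlap. Thus 2 of the 26 did not overlap, where 7.76% of all tested genes did not. Fbxw11, a homologue of Btrc, had a larger but more variable difference (-0.62, SE 0.29).

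Of 13 other negative regulators of the pathway, 11 had a lower mean in bKO, with a median log2 difference of -0.08. Tnip1, whose protein ABIN-1 binds A20, stood at 139.9, 129 and 125 CPM in WT and at 81.9, 103 and 101 CPM in bKO. The genotypes did not overlap, with a log2 difference of -0.46 (SE 0.13, edgeR p = 0.00942 before and 0.9999 after adjustment, exact permutation p = 0.1). Tnip1 is among the genes named for the smallest p of their list, and it was the only 1 of the 13 without overlap. Over all tested genes the genotypes did not overlap in 7.76%. Tank had lower means with overlap (116 ± 18.3 and 92.5 ± 18.4 CPM), while Tax1bp1 (160.1 ± 14.5 and 157 ± 21.2 CPM), an A20 adaptor, and Peli1 (152 ± 44.6 and 144 ± 14.3 CPM) differed by less than the spread between libraries. Without bKO replicate 1, 8 of the 13 had a lower mean.

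Receptors that signal to NF-kappaB had lower means for 9 of 14 tested genes (median -0.19, and -0.09 with 8 lower without bKO replicate 1), while Tnfrsf11a and Il1r1 did not pass the filter. Tnfrsf18 is also among the Treg markers. The TNF receptor 2 gene Tnfrsf1b stood at 178, 189 and 163 CPM in WT and at 77.7, 134 and 147 CPM in bKO without overlap (log2 difference -0.57, SE 0.24). It was the only 1 of the 14 without overlap, where 7.76% of all tested genes did not overlap. Tnfrsf4 (log2 difference -0.49, SE 0.33), Tnfrsf18 (-0.44, SE 0.28) and Tnfrsf9 (-0.72, SE 0.38) overlapped between genotypes, each lowest in bKO replicate 1. Cd28 had nearly equal means (263 ± 22.1 and 268 ± 16.5 CPM). Of 23 tested genes that are reported NF-kappaB targets, 16 had a lower mean in bKO (median -0.13), but only 10 did without bKO replicate 1 (median 0.05). Gadd45b, a stress-response gene, stood at 37.7, 30.3 and 28.4 CPM in WT and at 18.8, 22.9 and 16.8 CPM in bKO without overlap (log2 difference -0.72, SE 0.20), and Cd83 was likewise lower in each bKO library (-0.54, SE 0.18). Myc and Ier3, named after their values were seen, were higher in each bKO library than in WT. Of the 23 targets, 2 thus did not overlap with bKO lower and 2 with bKO higher. Over all tested genes these shares were 4.07% and 3.68%. The targets with the highest CPM, Tap1 (299.7 ± 28.1 and 239.9 ± 45.4 CPM), Irf1 (245 ± 51.4 and 247 ± 32.6 CPM) and Traf1 (178 ± 15.1 and 152 ± 45.2 CPM), overlapped. Foxp3 and Il2ra are in both this list and the Treg markers, and Csf2 did not pass the filter. Nfkbib, Nfkbil1, Tnfrsf18 and Foxp3 share 16.4%, 16.4%, 27.2% and 31.5% of their exon bases with neighbouring genes, so their counts are uncertain. Ebi3, also in the list of targets, shares 23.4%. Each of the pathway genes given with values had an edgeR adjusted p of 0.9999.

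**Figure D5:**
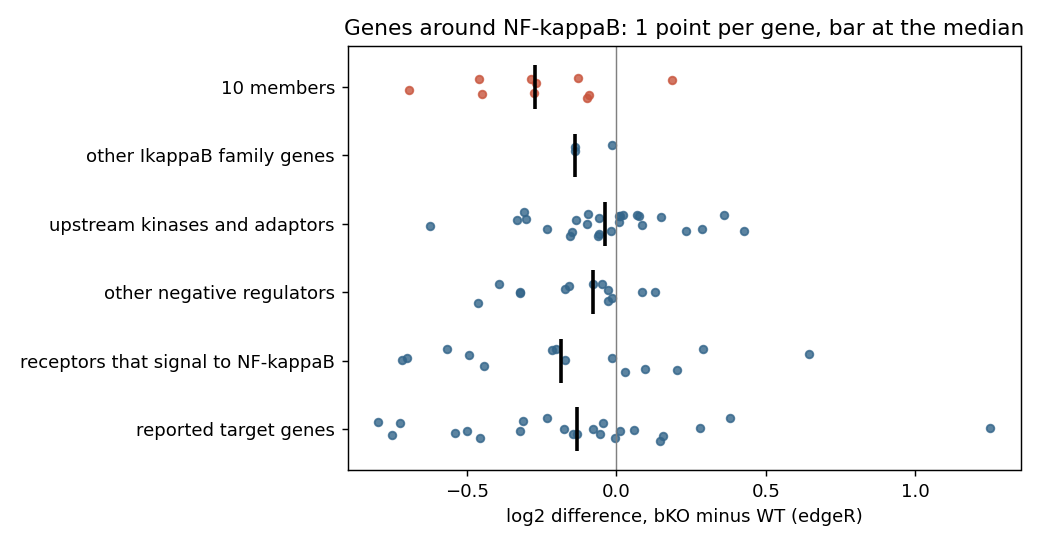
Log2 difference (bKO minus WT, edgeR) of the 10 genes (red) and of 5 lists of pathway genes (blue), 1 point per gene, with a bar at each median; the vertical scatter within a list carries no value. The medians are -0.27 for the 10 genes, -0.14, -0.04, -0.08 and -0.19 for the other IkappaB genes, upstream genes, other negative regulators and receptors, and -0.13 for reported targets.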

How the data were processed

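The authors deposited raw read counts per Ensembl gene, 1 table per library, made with bcl2fastq 2.19.0.316, STAR 2.3 and featureCounts on mm10, per the submitters' processing notes. No annotation release or strand setting is named in those sources. Per the labels' protocols, libraries came from the SMARTer Ultra Low Input kit and single reads, with no molecular identifiers named, so PCR copies count as reads. Symbols and positions are from GENCODE M21 (GRCm38), and 105 of 53379 identifiers were not matched. None of the 10 genes had counts identical to another gene. edgeR 4.0.16 (R 4.3.3; filterByExpr, TMM, robust quasi-likelihood F test, two-sided, genotype only, threshold 0.05) was fitted to all genes and tested on simulated data. Alternatives used limma 3.58.1 (voom), DESeq2 1.42.0, other scalings and filters, a replicate block, a table-name-set term and leaving out each library. Chi-square divided by its degrees of freedom was 35.8 to 129 between any 2 libraries, far from sampling noise, so none was a copy. Over all genes, the common dispersion equals a coefficient of variation of 51.0%. The 10 genes had 393 counts or more in each library, and their own coefficients of variation within a genotype were 2.34% to 32.7%. Named genes were the 10 members, Junb, of each pathway list the 3 most abundant and the 2 with the smallest p, and the 3 most similar genes for Nfkbia, Tnfaip3, Nfkb1 and Rel. The members and lists were chosen with earlier results of these data known.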

Additional observations from a re-analysis of the deposited data

How the results depend on the processing

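Across 14 other settings, 137 of 140 log2 differences of the 10 genes kept their sign, and 0 of the 10 were called under any of them. The sign turned for Nfkbie with the name-set term (0.048) and, when libraries were left out one at a time, for Nfkbie (range -0.31 to 0.15) and Nfkbid (range -0.20 to 0.12). DESeq2 called 63 genes where edgeR called 0, and called Junb (log2 difference -0.63, adjusted p = 0.00417). The count of the 10 genes without overlap was 4 to 7 when libraries were left out (7 without WT replicate 1, of which 2 were higher in bKO) and 3 on total counts. With a library left out, groups of 2 against 3 also did not overlap for 14.7% to 19.2% of all tested genes, against 7.76% with all libraries. Their median log2 difference ranged from -0.32 to -0.15 when libraries were left out, with the smallest size without bKO replicate 1. Medians of the other IkappaB genes (0.03) and reported targets (0.049) turned sign without that library, a setting added after the data were seen. The replicate numbers are not said to pair the libraries. Correlations of same-numbered deviations from the group means were -0.18, 0.43 and 0.18, and with 3 libraries per group they cannot decide whether libraries were paired. With the replicate block the median log2 difference of the 10 genes was -0.27, with 9 genes lower and 0 called. The share of Rela depended on gene length (45.6% in WT with merged exons, 33.0% with coding transcripts), also added after the data were seen. The cause of the differences between settings was not tested.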
